A study of Mus musculus with 53 samples.

Results

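The cornified envelope genes described here are every mouse gene whose symbol in the arrays' annotation starts with Lce (late cornified envelope) or Sprr (small proline-rich), together with Flg, Flg2, Hrnr, Rptn, Lor, Ivl, Tchh, Crct1, Krtdap and Sbsn. The annotation named 47 such genes. Of these, 33 had a probe set of their own on the older 3' arrays among 18194 genes measured there, and 41 had one on the Gene ST arrays among 19938 genes. In all, 43 genes had a probe set of their own on at least 1 array type and 31 on both. The remaining 4 genes (Sprr2a1, Sprr2a2, Sprr2a3 and Lce3d) had only probe sets shared with other genes on the arrays that listed them, and no value is given for them.

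The study compared epithelial organs of the mouse by expression arrays: 53 arrays of total RNA in 18 groups, of which 16 groups are used here and lung and trachea are not. Dorsal skin was measured on the 3' arrays at embryonic day (E) 14.5, at E16.5 and also at E18.5, with 3 arrays per age. Bladder had 2 arrays at E14.5 and 3 at each of the same later ages. Stomach, esophagus and the proximal part of the small intestine were taken once, on E18.5, with 3 arrays per organ. The Gene ST arrays held whole cornea at E14.5, E15.5, E17.5 and postnatal day (P) 3, P7, P14 and P28 (3 arrays each, 21 in all). All mice were of the CB6 strain and wildtype, except that the E18.5 bladders came from Get1 +/- animals, which carry 1 working copy of the gene now called Grhl3, a grainyhead-like transcription factor of surface epithelia. Arrays of cornea, of bladder and of the oldest skin were reused from work the laboratory had done before, and the labels do not say which part of the stomach was taken. The labels do not state whether replicate arrays were made from different animals, so the p-values reflect array-to-array spread that may be technical only. Whole organs were measured, so fewer keratinocytes and less RNA per keratinocyte cannot be told apart.

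The cornified envelope is a protein shell that replaces the plasma membrane of the outermost cells of keratinised epithelia. Its components are laid down under the membrane and joined by transglutaminases, with loricrin, the SPRR proteins and the LCE proteins as late, abundant parts and involucrin as an early scaffold. Filaggrin, filaggrin 2, hornerin, repetin and trichohyalin are large S100-fused proteins; filaggrin bundles keratin filaments, and trichohyalin hardens the inner root sheath of the hair follicle. Most of these genes lie in 1 cluster, the epidermal differentiation complex. In the reference used here (RefSeq, GRCm38.p6), 45 of the 47 genes were on chromosome 3. Krtdap and Sbsn, which encode secreted proteins of the upper epidermis, were on chromosome 7. The mouse stomach includes a keratinised forestomach beside its glandular part, whereas the esophagus and the bladder of the fetus are lined by mucosal and urothelial layers.

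Promoter sequences are shown for 5 genes whose levels differed most plainly between organs or ages below: Lce3f (stomach), Lce1a1 (skin and stomach), Sprr1b (skin at E16.5), Ivl (bladder and cornea) and Krtdap (skin and cornea). Each is the 250 bases before the RefSeq start site in GRCm38.p6, read 5′ to 3′ on the gene's strand, in lower case, with capitals at matches to the AP-1, KLF4, grainyhead and ETS motifs defined after them.
Lce3f (chr3:92991967-92992216, plus strand): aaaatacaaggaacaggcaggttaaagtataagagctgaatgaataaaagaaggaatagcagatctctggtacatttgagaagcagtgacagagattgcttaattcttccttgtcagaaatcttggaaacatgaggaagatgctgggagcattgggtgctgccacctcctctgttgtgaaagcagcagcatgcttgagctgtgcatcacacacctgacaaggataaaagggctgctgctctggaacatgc
Lce1a1 (chr3:92648308-92648557, minus strand): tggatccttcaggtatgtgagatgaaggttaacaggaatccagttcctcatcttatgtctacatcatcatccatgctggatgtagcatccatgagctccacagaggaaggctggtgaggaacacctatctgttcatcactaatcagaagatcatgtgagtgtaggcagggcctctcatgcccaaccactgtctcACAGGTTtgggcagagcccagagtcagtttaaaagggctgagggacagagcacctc
Sprr1b (chr3:92438780-92439029, minus strand): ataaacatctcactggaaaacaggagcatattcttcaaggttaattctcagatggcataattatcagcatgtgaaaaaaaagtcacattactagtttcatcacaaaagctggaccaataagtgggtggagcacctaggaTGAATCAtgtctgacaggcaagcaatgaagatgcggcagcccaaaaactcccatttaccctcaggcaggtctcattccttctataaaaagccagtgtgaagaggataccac
Ivl (chr3:92573736-92573985, minus strand): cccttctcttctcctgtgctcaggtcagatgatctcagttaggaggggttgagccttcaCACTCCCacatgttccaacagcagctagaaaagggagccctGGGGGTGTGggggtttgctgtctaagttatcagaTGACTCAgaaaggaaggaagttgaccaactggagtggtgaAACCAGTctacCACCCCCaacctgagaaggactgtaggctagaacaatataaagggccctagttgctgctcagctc
Krtdap (chr7:30787655-30787904, plus strand): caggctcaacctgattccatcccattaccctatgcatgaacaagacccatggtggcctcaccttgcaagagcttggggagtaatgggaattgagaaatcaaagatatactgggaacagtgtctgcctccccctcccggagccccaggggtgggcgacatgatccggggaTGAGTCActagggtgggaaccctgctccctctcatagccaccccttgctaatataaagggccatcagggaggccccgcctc

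The motifs were searched on both strands of these 250-base windows, for 43 of the 47 genes with an entry in the reference. The AP-1 letters TGANTCA stood in 16 of 43 member promoters (37.2%), against 6.75% of 32851 promoters of all genes. None of the 20 Lce promoters held them, whereas 16 of the 23 other member promoters did, including 7 of 10 Sprr2 promoters. Sprr1b, Krtdap and Ivl each had 1 match, 111, 81 and 116 bases before the start. The KLF4 letters GGGNGTG were in 3 of 43 member promoters (6.98%), against 26.1% of all, and Ivl held 4 matches, of which those starting 150 and 148 bases before the start overlap. The grainyhead letters ACNGGTT were in 6 of 43 (14%), against 7.06% of all, among them Ivl at 76 bases and Lce1a1 at 56 bases before the start. The ETS letters CCGGAAG were in 0 of 43, against 6.91% of all. Letters in a window are a description of the sequence, and binding was not measured here.

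Levels below are log2(intensity + 16) of the probe set that was brightest on average for each gene, after quantile normalization within each array type, so a level of 4 is the floor that an intensity of 0 gives. The median level over all probe sets was 5.77 on the 3' arrays and 7.95 on the Gene ST arrays. Differences are limma estimates ± standard error, a gene was called when its p-value adjusted over all genes was under 0.05 and its change was at least 2-fold, and differences on this scale understate the change of dim genes. Beside a difference between groups, a fold is given only where the means of both groups were above the median of the table. Levels of different genes are not compared, because probe sets differ in brightness. The probe sets used for Lce1d, Lce1h, Lce1i, Lce3b, Lce3c and Sbsn are of the x type and those for Lce1m and Sprr2h of the s type, which can detect closely related transcripts, so signal from near-identical family members may be shared there.

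The 26 arrays of the 3' type fell into 2 sets that did not follow organ or age. One set held 17 arrays (all bladder, esophagus, stomach and E14.5 skin) and the other 9 (E16.5 skin, E18.5 skin and small intestine). Over the 22509 probe sets brighter than the table median, arrays correlated at 0.83 to 0.99 within the set of 17, at 0.72 to 0.98 within the set of 9, and at 0.37 to 0.59 between sets. E14.5 skin correlated at 0.49 to 0.55 with E16.5 skin and at 0.86 to 0.9 with stomach. The mean level of the 7 bacterial BioB, BioC and BioD spike-in probe sets, which do not come from the mouse, was 11.31 to 12.5 in the set of 17 and 8.45 to 8.87 in the set of 9. Comparisons that cross the sets therefore cannot tell the set from the organ or age, and their counts are given beside the share of all genes called. For Lor the probe sets themselves disagreed across sets. One of them averaged 11.86 in E14.5 skin and 5.29 and 5.16 in E16.5 and E18.5 skin. Another averaged 11.59, 13.08 and 12.74 at these ages. The probe set brightest on average over all arrays, used here, averaged 11.67, 11.48 and 11.57.

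Some single arrays also stood apart. Small intestine replicate 3 correlated at 0.86 and 0.87 with replicates 1 and 2, which correlated at 0.97 with each other, and 32 of 33 cornified envelope genes were brighter on it than on both of the others. E14.5 skin replicates 1 and 2, whose titles share an identifier, correlated at 0.99. Averaging them to 1 sample gave 8 genes for E14.5 skin against bladder, without Crct1 (13.2% of all genes called), 18 for E16.5 against E14.5 skin, without Hrnr (42.4%), and 16 for the difference of that step from the bladder step, without Crct1 (41.1%). On them the intestinal genes Apoa4 (12.13 and 12.01) and Vil1 (8.28 and 8.20) were bright, against 4.65 and 4.56 on replicate 3. Defining markers were checked for each organ. In bladder, Upk3a, a urothelial plaque gene, was 9.76 to 9.98 on the E18.5 bladder arrays and at most 6.8 on esophagus and 4.9 on stomach. Krt10, a suprabasal epidermal keratin, was at least 11.47 on every skin array. Krt4, a mucosal keratin, was 12.92 to 13.85 in esophagus, Gkn1 of the glandular stomach was 9.17 to 12.32 in stomach, and the enterocyte gene Vil1 was 12.43 and 12.35 on small intestine replicates 1 and 2 but 9.07 on replicate 3.

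**Figure D1:**
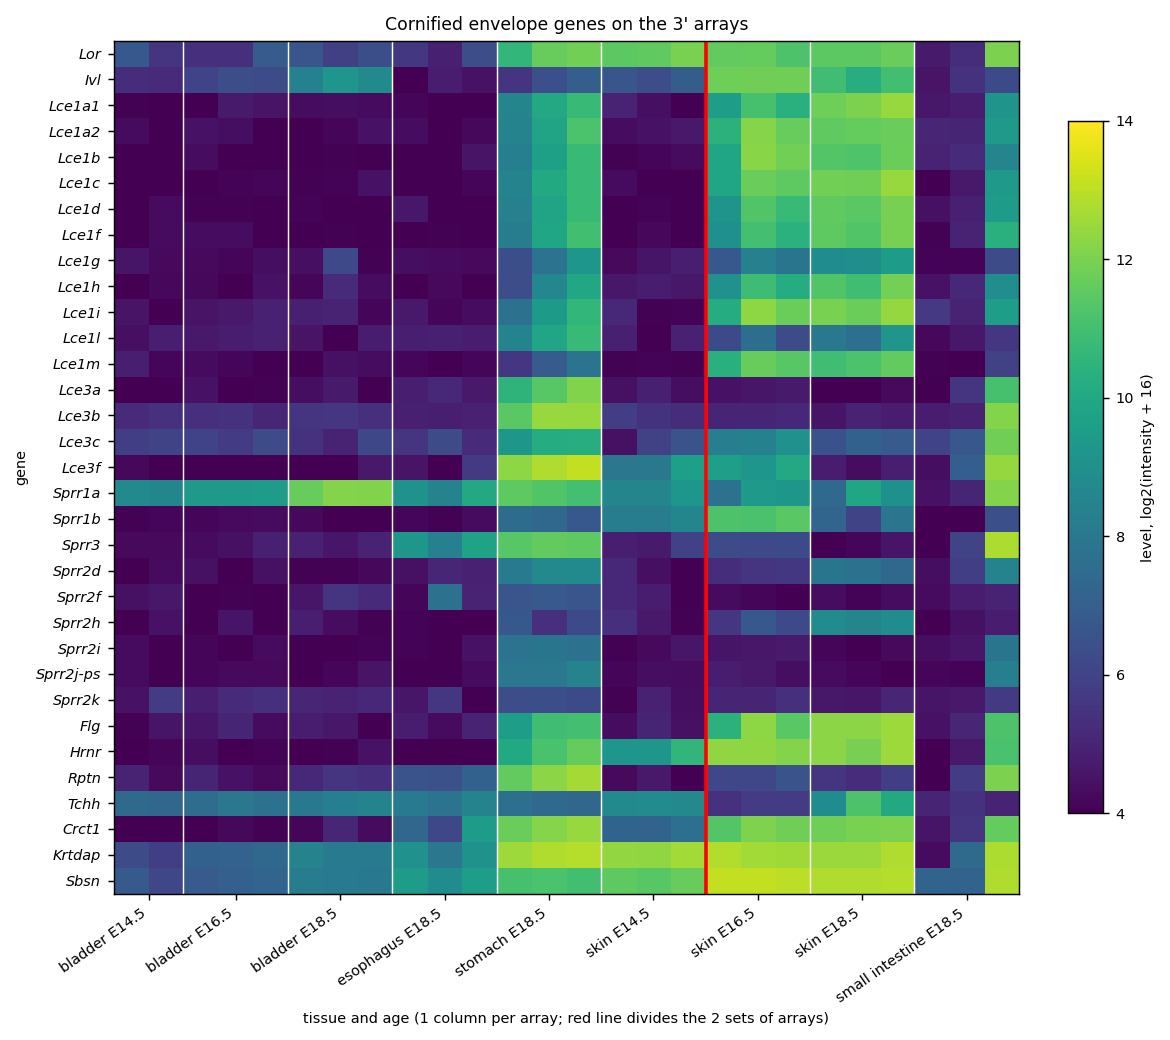
Levels, as log2(intensity + 16), of the 33 cornified envelope genes (rows) on the 26 arrays of the 3' type (columns, grouped by organ and age), from 4 (dark) to 14 (bright); the red line divides the set of 17 arrays from the set of 9. The Lce1 block is bright in stomach and in E16.5 and E18.5 skin and dark in bladder, esophagus and E14.5 skin, and the third small intestine array differs from the other two.

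The heat map of levels by array shows where the genes were bright. On every array of a group, 30 of 33 genes were above the table median in stomach, 24 in E16.5 skin, 24 in E18.5 skin and 10 in E14.5 skin. The corresponding numbers were 7 in esophagus, 5, 5 and 6 in bladder from the youngest to the oldest age, and 2 in small intestine. The 11 Lce1 genes ranged from 5.58 to 11.17 in stomach, from 6.25 to 12.3 in E16.5 skin and from 7.65 to 12.45 in E18.5 skin. In esophagus they lay between 4 and 4.87, in E14.5 skin between 4 and 5.11, and in bladder between 4 and 6.19. On the first 2 small intestine arrays they lay between 4.00 and 5.66.

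In E14.5 skin the Lce1 genes and Flg were below the table median. A small group of other cornified envelope genes already stood above E14.5 bladder, measured in the same set of arrays. The bladder arrays were reused from earlier work, so study and organ cannot be told apart. Of 33 genes, 9 were higher and 0 lower, where 14.1% of all genes were called (8.11% higher, 6% lower). The 9 were Krtdap, Hrnr, Lor, Sbsn, Lce3f, Sprr1b, Crct1, Ivl and Tchh. The median difference over the 33 genes was 0.33, against 0.05 over all genes.

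Krtdap encodes a small secreted keratinocyte protein. It was 12.36, 12.34 and 12.61 on the E14.5 skin arrays and 6.29 and 5.87 on the bladder arrays, a difference of 6.36 ± 1.25 (82.1-fold, adjusted p = 0.00069). Hrnr, the hornerin gene, was 9.24, 9.30 and 10.59 in skin and 4.00 and 4.19 in bladder, a difference of 5.62 ± 1.17 (adjusted p = 0.0012). Lor, which encodes loricrin, was 11.48, 11.55 and 11.97 against 6.77 and 5.54, a difference of 5.51 ± 1.24 (adjusted p = 0.0023). The arrays of the 2 organs did not overlap for any of these genes. Sbsn (suprabasin) was 11.51, 11.42 and 11.68 in skin and 6.82 and 6.12 in bladder, a difference of 5.06 ± 0.94 (adjusted p = 0.00039). Lce3f was 7.97, 7.99 and 9.65 against 4.21 and 4.00, a difference of 4.43 ± 1.25 (adjusted p = 0.012). Sprr1b, whose product is a cross-linked small proline-rich protein, was 8.21, 8.24 and 8.58 against 4.04 and 4.15, a difference of 4.25 ± 0.51 (adjusted p = 3.3e-06). Skin was clear of bladder for all 3, with replicate 3 the highest skin array for each.

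Crct1 was 7.21, 7.17 and 7.66 in E14.5 skin and at 4.00 on both bladder arrays; its adjusted p was 0.05 after rounding, just under the threshold, and it was not called in any of the 5 fits that left out 1 array. Ivl was higher by 1.41 ± 0.41 (adjusted p = 0.015) and Tchh by 1.39 ± 0.38 (adjusted p = 0.01). No Lce1 gene was called, and their differences lay between -0.43 and 0.58. The epidermal keratins Krt1 (6.92 ± 1.23), Krt77 (5.87 ± 0.23) and Krt10 (5.47 ± 1.01) were higher in the same comparison, and so was the scaffold gene Scel (5.05 ± 0.85). Markers of other cells differed too: 2 of 3 skeletal muscle, 2 of 3 melanocyte and 1 of 4 enterocyte genes were higher in skin, and 2 of 3 smooth muscle and 3 of 3 urothelial genes lower. The summed intensity, skin against bladder, was 1960 to 3540 against 189 to 275 for skeletal muscle, 274 to 416 against 43.3 to 229 for melanocyte and 36.4 to 4840 against 28.9 to 47.8 for enterocyte genes. It was 747 to 1080 against 8440 to 10200 for smooth muscle and 9.65 to 27.2 against 233 to 273 for urothelial genes. Their part in the result was not tested. All 9 genes called higher in skin were also called with the compared groups alone and with the arrays of the same set alone. The standard errors of the main fit included the small intestine arrays. On these, Crct1 was 4.58, 5.49 and 11.63 and Lce3f was 4.37, 6.98 and 12.43. This comparison was added after the 2 sets of arrays had been seen, and without bladder replicate 2 the count was 5 where 11.9% of all genes were called, with Crct1, Ivl, Lce3f and Tchh no longer called. Ivl and Lce3f were also not called without bladder replicate 1, nor Ivl without skin replicate 3.

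Between E14.5 and E16.5 skin, 18 of 33 genes were higher at E16.5 and 1 lower, in a comparison that crosses the sets of arrays and called 43.2% of all genes (18.2% higher, 25% lower). The Lce1 genes and Flg, the filaggrin gene, had the largest differences. Lce1b was 4.04, 4.16 and 4.29 at E14.5 and 9.93, 12.22 and 11.86 at E16.5. Lce1m was 4.04, 4.11 and 4.05 at E14.5 and 10.35, 11.68 and 11.40 at E16.5. Flg was 4.35, 5.05 and 4.46 at E14.5 and 10.42, 12.30 and 11.44 at E16.5. In each case every E16.5 array lay above every E14.5 array, and replicate 6 was the lowest of the E16.5 arrays. All 11 Lce1 genes were called, with differences from 2.13 ± 0.48 (Lce1l) to 7.17 ± 0.69 (Lce1b).

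Ivl, the early scaffold gene, was 6.66, 6.36 and 6.94 in E14.5 skin and 11.80, 11.84 and 11.84 in E16.5 skin, a difference of 5.17 ± 0.37 (adjusted p = 8.1e-11). Of the genes already called above bladder at E14.5, Sprr1b (2.92 ± 0.46), Crct1 (4.40 ± 1.09) and Hrnr (2.57 ± 1.05) were higher again at E16.5, whereas the differences were 0.24 ± 1.12 for Krtdap, -0.19 ± 1.11 for Lor, 1.52 ± 0.84 for Sbsn and 1.11 ± 1.12 for Lce3f and were not called. Tchh was the 1 gene called lower, at 8.78, 8.83 and 8.69 against 5.44, 5.74 and 5.75. Tchh was 7.31 to 8.49 on the other arrays of the set of 17, while in the set of 9 it was 4.98 to 5.48 in small intestine and 8.87 to 11.20 in E18.5 skin. Among markers of other cells, 3 of 3 skeletal muscle, 3 of 3 melanocyte and 2 of 3 smooth muscle genes were higher at E16.5 and 2 of 4 enterocyte genes lower. Summed intensity, E16.5 against E14.5, was 15100 to 16500 against 1960 to 3540 for skeletal muscle, 656 to 3670 against 274 to 416 for melanocyte, 2960 to 3130 against 747 to 1080 for smooth muscle and 16.8 to 32 against 36.4 to 4840 for enterocyte genes; their part was not tested. Set and age cannot be told apart for any of these 19 calls. The skin step was larger than the bladder step over the same days for 16 of 33 genes and smaller for 1, where 42.2% of all genes were called (16.9% higher, 25.2% lower).

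Between E16.5 and E18.5 skin, which lie in the same set of arrays, 6 of 33 genes changed (4 higher, 2 lower), where 4.44% of all genes were called (2.44% higher, 2% lower). Tchh, Sprr2h, Sprr2d and Lce1l were higher at E18.5, and Sprr1b and Lce3f were lower. The median over the 33 genes was 0.1, against 0.03 over all genes, and for 21 of them the arrays of the 2 ages did not overlap, which held for 39% of all genes. The E18.5 arrays came from an earlier study than the E16.5 arrays, so study and age cannot be told apart.

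Tchh, the trichohyalin gene of the hair follicle, was 5.44, 5.74 and 5.75 at E16.5 and 8.87, 11.20 and 10.09 at E18.5, a difference of 4.41 ± 0.34 (adjusted p = 1.2e-08). Markers of the hair follicle moved with it: 7 of 8 were higher, led by Krt27 (8.15 ± 0.37), Krt25 (6.66 ± 0.33), Krt71 (6.45 ± 0.38) and Krt28 (4.27 ± 0.34), and their summed intensity was 731 to 807 at E16.5 and 4520 to 23700 at E18.5. Krt27 and Tchh put the 3 E18.5 arrays in the same order, Krt27 at 10.87, 13.47 and 12.19. All 3 melanocyte markers were also higher, and the part of these cells in the result was not tested.

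Sprr1b was 11.19, 11.13 and 11.45 at E16.5 and 7.25, 6.07 and 7.92 at E18.5; it fell by 4.18 ± 0.46 (adjusted p = 2.2e-06). Lce3f was 9.65, 9.24 and 10.04 at E16.5 and 4.77, 4.35 and 4.83 at E18.5; it fell by 5.0 ± 1.12 (adjusted p = 0.0044). Neither gene's arrays overlapped between the ages. The keratin Krt77 fell by 5.77 ± 0.20 over the same interval. Within the set of 9 arrays alone Sprr1b, Tchh and Sprr2h were called, and Lce3f was not (-5.15 ± 1.86, adjusted p = 0.13). The standard error of that fit included the small intestine arrays, on which Lce3f was 4.37, 6.98 and 12.43. On the 9 arrays 3.08% of all genes were called.

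Sprr2h and Sprr2d belong to the Sprr2 subfamily of cross-linked proteins. Sprr2h was 5.58, 6.74 and 6.22 at E16.5 and 8.84, 8.56 and 8.86 at E18.5, a difference of 2.57 ± 0.35 (adjusted p = 3.2e-05). Sprr2d was 5.30, 5.53 and 5.63 against 7.87, 7.77 and 7.37, a difference of 2.18 ± 0.58 (adjusted p = 0.014). The other 4 Sprr2 genes differed by at most 0.51 in size and stayed at 4.00 to 5.37. Lce1l was 6.25, 7.60 and 6.31 against 8.00, 7.65 and 9.22 (1.57 ± 0.48, adjusted p = 0.035), with the highest E16.5 array just under the lowest E18.5 array. Lce1l was not called without E16.5 replicate 6 or 8 or without E18.5 replicate 3, nor Sprr2d without E16.5 replicate 6. The remaining 10 Lce1 genes had differences of 0.1 to 1.75, all above 0, and were not called. Lce1a1, with the largest of these, was 9.61, 11.09 and 10.35 at E16.5 and 11.80, 12.03 and 12.45 at E18.5 (1.75 ± 0.77, adjusted p = 0.16), without overlap. Ivl differed by -1.11 ± 0.37 (adjusted p = 0.051). Lor was 11.58, 11.63 and 11.22 at E16.5 and 11.48, 11.49 and 11.73 at E18.5, and Krtdap, Sbsn, Hrnr and Crct1 had differences between -0.22 and 0.21.

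**Figure D2:**
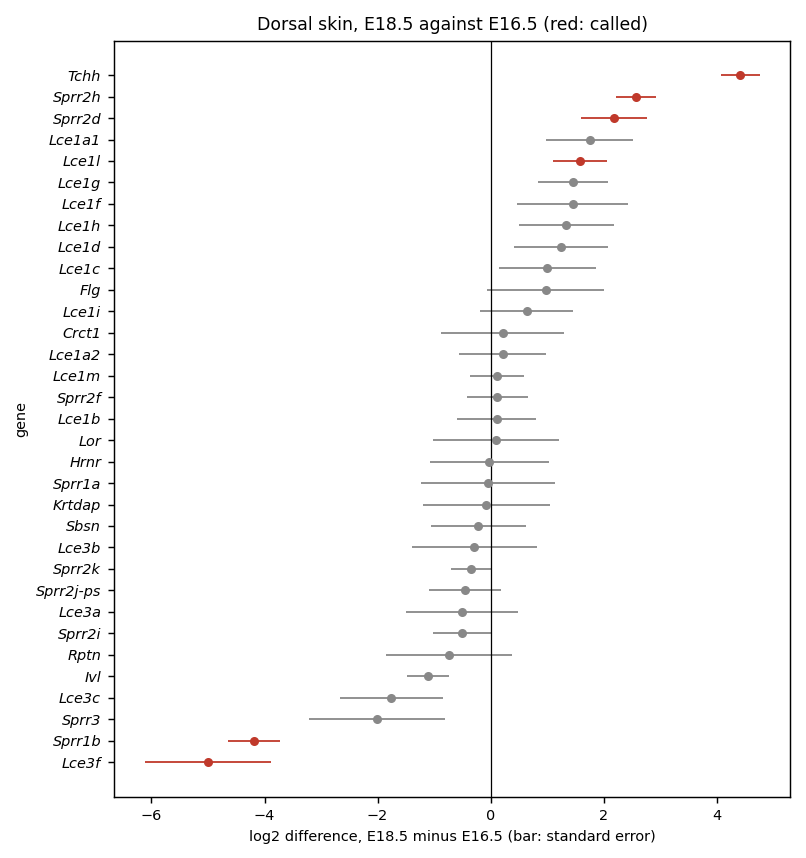
Differences in level between E18.5 and E16.5 dorsal skin for the 33 genes (points, E18.5 minus E16.5 in log2 units, 3 arrays per age) with their standard errors (bars); red marks the 6 called genes. Tchh is farthest to the right at 4.41 and Lce3f farthest to the left at -5.0, while most genes lie within 2 units of 0.

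Stomach and esophagus at E18.5 differed across nearly the whole group. Of 33 genes, 28 were higher in stomach and 0 lower, where 7.05% of all genes were called (4.25% higher, 2.8% lower). The median difference over the 33 genes was 4.25, against 0.04 over all genes, and for 32 of them the 3 stomach arrays did not overlap the 3 esophagus arrays, which held for 32.7% of all genes. All 11 Lce1 genes, all 4 Lce3 genes, 5 of 6 Sprr2 genes, and Flg, Hrnr and Rptn were among those called. Both organs lie in the set of 17 arrays.

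Of the 4 Lce3 genes, which encode late envelope proteins, Lce3f and Lce3b had the largest differences of the group and Lce3c the smallest of the family. Lce3f was 12.29, 12.82 and 13.10 in stomach and 4.54, 4.00 and 5.70 in esophagus, a difference of 7.99 ± 1.12 (adjusted p = 3.4e-05). Lce3b was 11.43, 12.45 and 12.45 in stomach and 4.88, 4.85 and 4.90 in esophagus, a difference of 7.24 ± 1.1 (adjusted p = 8.5e-05). Lce3a was 10.52, 11.42 and 12.09 against 4.85, 5.12 and 4.69, a difference of 6.46 ± 0.99 (adjusted p = 9.3e-05). The esophagus arrays were close to the floor for these 3, and replicate 1 was the lowest stomach array for each. Lce3c was 9.28, 10.20 and 10.23 against 5.52, 6.28 and 5.20, a difference of 4.23 ± 0.91 (adjusted p = 0.0026).

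The Lce1 genes ran in parallel. Lce1a1 was 8.55, 10.02 and 10.76 in stomach and 4.13, 4.00 and 4.00 in esophagus, a difference of 5.73 ± 0.77 (adjusted p = 1.9e-05). Lce1c differed by 5.71 ± 0.86 (adjusted p = 7.8e-05) and Lce1a2 by 5.65 ± 0.77 (adjusted p = 2.5e-05). The smallest Lce1 difference was that of Lce1m (2.65 ± 0.47). Lce1f differed by 5.69 ± 0.98 on its brightest probe set and by 3.58 ± 0.48 in the set of 17 arrays alone, where its other probe set is the brighter. Stomach replicate 1 was the lowest of the 3 stomach arrays for every Lce1 gene.

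Of the S100-fused genes, 3 of 4 were higher in stomach. Hrnr was 10.07, 11.14 and 11.65 in stomach and at the floor of 4.00 on all 3 esophagus arrays (difference 6.96 ± 1.05, adjusted p = 8.3e-05). Flg was 9.55, 10.92 and 11.01 against 4.77, 4.28 and 4.94, a difference of 5.83 ± 1.03 (adjusted p = 0.00044). Rptn, which encodes repetin, was 11.58, 12.27 and 12.66 against 6.57, 6.48 and 7.12, a difference of 5.45 ± 1.11 (43.7-fold, adjusted p = 0.0017). No stomach array overlapped an esophagus array for these 3. Tchh was the exception in the family at 7.67, 7.42 and 7.31 against 8.11, 7.82 and 8.46 (-0.66 ± 0.34, adjusted p = 0.23).

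Loricrin, involucrin and the secreted proteins followed with different sizes. Lor was 10.61, 11.69 and 11.89 in stomach and 5.62, 4.89 and 6.37 in esophagus, a difference of 5.77 ± 1.11 (adjusted p = 0.001). Crct1, a cysteine-rich gene of the same cluster, was 11.76, 12.17 and 12.44 against 7.32, 6.18 and 9.51, a difference of 4.45 ± 1.09 (adjusted p = 0.0076). Krtdap was 12.53, 12.81 and 12.88 against 9.06, 7.98 and 9.15, a difference of 4.01 ± 1.12 (adjusted p = 0.018). The esophagus arrays spread widely for Crct1, over more than 3 units, and less for Krtdap, which was not called without esophagus replicate 2 (3.64, adjusted p = 0.071) or stomach replicate 2 (3.97, adjusted p = 0.055). Ivl was 5.52, 6.44 and 7.02 against 4.00, 4.78 and 4.49, a difference of 1.90 ± 0.37 (adjusted p = 0.0011).

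A few genes were bright in both organs. Sprr3, an esophageal small proline-rich gene, was 11.39, 11.59 and 11.53 in stomach and 9.31, 8.36 and 9.78 in esophagus (2.35 ± 1.20, adjusted p = 0.22). Sprr1a was 11.53, 11.27 and 11.03 against 9.11, 8.47 and 10.02 (2.07 ± 1.19, adjusted p = 0.28). Sbsn was 11.09, 11.15 and 10.97 against 9.51, 8.88 and 9.58 (1.74 ± 0.84, adjusted p = 0.19). Their arrays did not overlap between the organs. The standard errors of these genes included the spread of the small intestine arrays; in the set of 17 arrays alone they were 0.33, 0.29 and 0.20, all 3 genes were called, and the count was 31 of 33, with 7.33% of all genes called. With the replicate number as a block, on the stomach and esophagus arrays alone, the same 3 were called too (adjusted p = 0.024 for Sprr3, 0.046 for Sprr1a and 0.018 for Sbsn), and 31 of 33 genes were higher where 5.97% of all genes were called.

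Other genes of cornification were compared between stomach and esophagus as well. Of 12 scaffold and cross-linking genes 0 were called by limma (1 had an unadjusted p under 0.05). That list had the transglutaminase gene Tgm3 at 7.43, 8.09 and 8.69 in stomach and 8.34, 10.41 and 10.62 in esophagus, and its largest difference was that of Cnfn (2.00 ± 1.23). Of 13 genes of filaggrin processing and desquamation 3 were higher and 1 lower: Casp14 (2.75 ± 0.58), Klk5 (2.67 ± 0.66) and Klk7 (2.20 ± 0.51) were higher and Padi1 fell by 2.13 ± 0.34 relative to esophagus. Of 14 regulators of late differentiation 0 were called by limma (3 had an unadjusted p under 0.05). Among epidermal keratins Krt1 (4.30 ± 1.1) and Krt10 (2.76 ± 0.91) were higher in stomach, and neither the mucosal keratins Krt4 and Krt13 nor the 4 basal epithelial genes were called. Markers of other cells also differed: 7 of 8 glandular stomach genes and 3 of 4 enterocyte genes were higher in stomach and 3 of 3 skeletal muscle genes lower, and their part in the result was not tested.

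**Figure D3:**
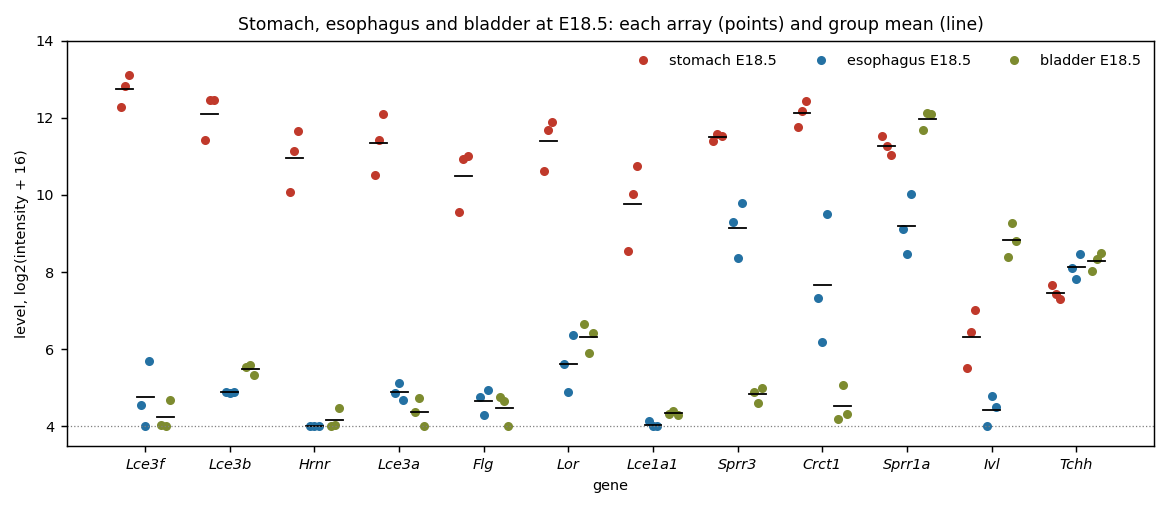
Levels of 12 cornified envelope genes in E18.5 stomach (red), esophagus (blue) and bladder (olive), 3 arrays each (points) with the group mean (line); the dotted line is the floor of 4. Lce3f, Lce3b, Hrnr, Lce3a, Flg, Lor and Lce1a1 are bright in stomach and not in the other 2 organs, Sprr3 in stomach and esophagus, Sprr1a in all 3 organs, and Ivl is brightest in bladder.

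Against bladder, stomach was higher for 30 of 33 genes and lower for 1, where 9.82% of all genes were called (5.03% higher, 4.79% lower). The 3 stomach and 3 bladder arrays did not overlap for any of the 33 genes (37.6% of all genes). Both comparisons use the same stomach arrays, so they are not independent. Lce3f was 4.03, 4.00 and 4.67 in E18.5 bladder (8.51 ± 1.12 below stomach) and Crct1 was 4.18, 5.06 and 4.31 (7.61 ± 1.09 below). Rptn was 5.14, 5.54 and 5.35 in bladder (6.83 ± 1.11 below stomach). Bladder was near the floor for most of the group. Ivl ran the other way: it was 8.40, 9.26 and 8.80 in bladder and 5.52, 6.44 and 7.02 in stomach, so that stomach fell by 2.50 ± 0.37 relative to bladder (adjusted p = 4.3e-05). Sprr1a was 11.69, 12.13 and 12.09 in bladder, a difference of -0.69 ± 1.19 between stomach and bladder (adjusted p = 0.75). Of other-cell markers, 7 of 8 glandular stomach and 4 of 4 enterocyte genes were higher in stomach, and 3 of 3 skeletal muscle, 2 of 3 smooth muscle and 3 of 3 urothelial genes lower. Their summed intensity, stomach against bladder, was 7360 to 18300 against 77.2 to 93.4 for glandular stomach, 825 to 3700 against 46.7 to 57.1 for enterocyte and 79.5 to 149 against 3370 to 4150 for skeletal muscle genes. For smooth muscle it was 6480 to 7340 against 14400 to 15300 and for urothelial genes 50.1 to 132 against 1850 to 2200, and the part of these cells was not tested. The bladders were Get1 +/- with arrays reused from earlier work, and the stomachs were wildtype. Organ, genotype and study therefore cannot be told apart.

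Between esophagus and bladder, 3 of 33 genes were called (2 higher and 1 lower in esophagus), where 11.2% of all genes were called (4.85% higher, 6.37% lower). Sprr3 was 9.31, 8.36 and 9.78 in esophagus and 4.90, 4.60 and 4.98 in bladder, a difference of 4.32 ± 1.20 (adjusted p = 0.01). Crct1 differed by 3.15 ± 1.09 (adjusted p = 0.035), and was not called without bladder replicate 1 or 3 or without esophagus replicate 1 or 4. Ivl fell by 4.40 ± 0.37 in esophagus relative to bladder (adjusted p = 2.7e-08). Sprr3 was thus higher in esophagus and Ivl in bladder, while both organs were near the floor for most Lce1 genes. Sprr1a was bright in both, with means of 9.2 in esophagus and 11.97 in bladder. In the set of 17 arrays alone, 6 genes were called where 11.8% of all genes were: Rptn (1.39 ± 0.30) and Sbsn (1.15 ± 0.20) were also higher in esophagus and Sprr1a fell by 2.58 ± 0.29. The bladders were Get1 +/- with arrays reused from earlier work, and the esophagi were wildtype. Organ, genotype and study therefore cannot be told apart.

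Within bladder, few of the 33 genes were called between ages, as was so for all genes. From E14.5 to E16.5, 0 of 33 genes were called by limma (1 had an unadjusted p under 0.05), where 0.341% of all genes were called. From E16.5 to E18.5, 1 gene was higher and 0 lower, where 6.14% of all genes were called (3.99% higher, 2.15% lower). Ivl was 5.31 and 5.18 at E14.5, 6.02, 6.42 and 6.31 at E16.5 and 8.40, 9.26 and 8.80 at E18.5, a last step of 2.58 ± 0.37 (5.96-fold, adjusted p = 7.3e-05). The 3 ages did not overlap. Sprr1a was 8.77 and 8.59, then 9.37, 9.36 and 9.47, then 11.69, 12.13 and 12.09, with a last step of 2.57 ± 1.19 (adjusted p = 0.16). In the set of 17 arrays alone that step was 2.39 ± 0.29 and was called, as were Sbsn (1.03 ± 0.20), Krtdap (1.03 ± 0.24) and Ivl, 4 genes where 6.55% of all genes were called. Over the same interval the urothelial genes Upk3a (2.10 ± 0.19) and Upk1a (1.72 ± 0.23), all 3 skeletal muscle genes and the basal keratin Krt14 (2.61 ± 0.80) were higher. The E18.5 bladders were Get1 +/- and the younger ones wildtype, so age and genotype cannot be told apart.

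Comparisons of E18.5 skin with stomach, esophagus and bladder cross the sets of arrays. Against stomach 11 of 33 genes were higher in skin and 11 lower, where 48.3% of all genes were called (21.7% higher, 26.6% lower). Leaving out 1 array gave 17 to 23 genes for skin against stomach. With a pseudocount of 1, 6 of the genes called in the main fit were not called. Against esophagus 22 were higher and 2 lower, where 48.9% of all genes were called (23.3% higher, 25.7% lower), and against bladder 22 were higher and 1 lower, where 46% were called (19.9% higher, 26.2% lower). Between skin and stomach, 8 Lce1 genes were higher and 1 lower in skin, all 4 Lce3 genes were lower, and of the Sprr2 genes 1 was higher and 4 were lower. Lce1m, Lce1h, Lce1i, Lce1a1, Lce1c, Lce1d, Lce1b and Lce1a2, with Ivl, Sprr2h and Tchh, were higher in skin, whereas all 4 Lce3 genes, Sprr3, Rptn, Sprr2f, Sprr2i, Sprr2j-ps, Sprr2k and Lce1l were lower. Lce3a was 4.00, 4.00 and 4.25 in E18.5 skin and 10.52, 11.42 and 12.09 in stomach. It was also at 4.39 to 4.89 on the E14.5 skin arrays, which share a set with stomach but are of a younger age. Set, study and organ cannot be told apart between E18.5 skin and stomach. Rptn was 5.49, 5.28 and 5.87 in E18.5 skin and 4.24, 4.69 and 4.02 in E14.5 skin, against 11.58 to 12.66 in stomach. Krtdap, Crct1 and Sprr1b differed by at most 0.17 in size between skin and stomach. Lor averaged 11.57 in E18.5 skin and 11.4 in stomach on the probe set used. On its other probe sets it averaged 12.74 against 10.67 and 5.16 against 11.13, so the Lor comparison depends on the probe set.

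**Figure D4:**
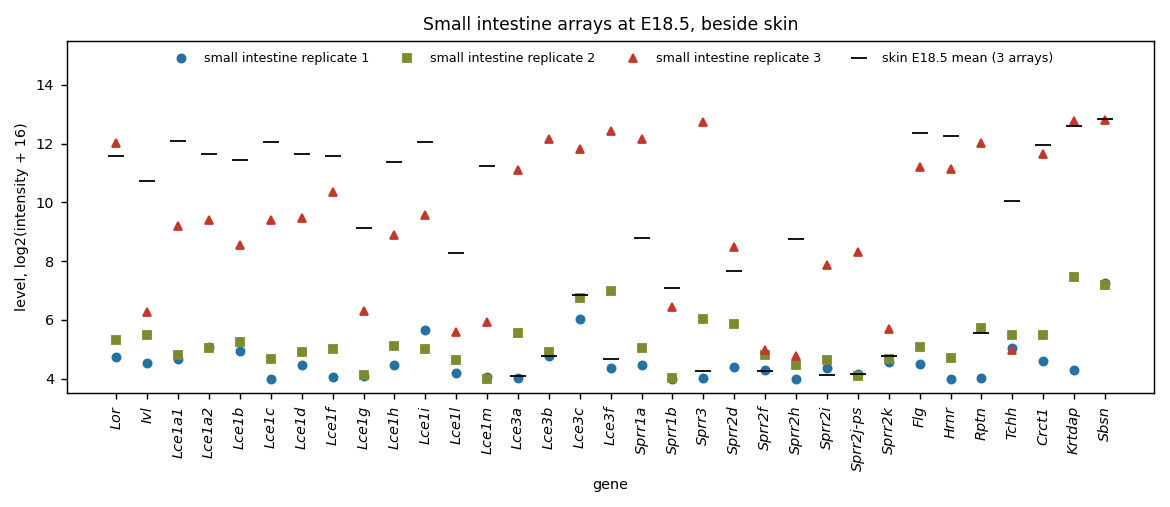
Levels of the 33 genes on the 3 small intestine arrays at E18.5 (symbols) and the mean of the 3 E18.5 skin arrays (dashes). Replicate 3 (triangles) lies above replicates 1 and 2 for 32 of 33 genes, up to 12.78 for Krtdap and 12.80 for Sbsn.

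The small intestine, a simple columnar epithelium, has no cornified layer, and 2 of its 3 arrays were low for most of the genes. Replicate 3 was not. Of 33 genes, 28 were at least 2-fold and 19 at least 16-fold brighter on replicate 3 than on the higher of the others, with a median difference of 4.39 and a largest of 7.24 (Lce3b). Lce3b was 4.76, 4.92 and 12.16, Sprr3 was 4.01, 6.04 and 12.75, and Rptn was 4.01, 5.73 and 12.01 on replicates 1, 2 and 3. The genes bright on replicate 3 included Lce3a (11.09), Lce3f (12.43) and Sprr2i (7.87), which were at 4.00 to 4.83 on all 3 E18.5 skin arrays. Ivl (6.25) and Tchh (4.98), which were bright in skin, were low on it. Krt5 (12.53), Krt13 (12.30) and Krt4 (13.63) were bright on replicate 3 as well, and so were the glandular stomach genes Atp4a (11.76), Atp4b (12.54) and Gkn1 (10.54). The enterocyte genes Vil1 (12.43, 12.35 and 9.07) and Alpi (12.29, 12.81 and 8.53) were lowest there. The origin of this array's signal was not tested.

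Skin against small intestine at E18.5, both in the set of 9 arrays, gave 21 genes higher and 4 lower of 33, where 19.2% of all genes were called (8.99% higher, 10.2% lower). On the set of 9 arrays normalized alone, 17 were higher and 0 lower, where 17.2% of all genes were called. Without small intestine replicate 3 the numbers were 23 higher and 0 lower, where 22.3% of all genes were called (10.8% higher, 11.4% lower). The 4 genes called lower with all arrays (Sprr3, Lce3f, Lce3a and Sprr2i) rest on that replicate. Lce1m was 10.95, 11.18 and 11.61 in skin and 4.06, 4.00 and 5.93 in small intestine, a difference of 6.58 ± 0.47 (adjusted p = 5.3e-10). Ivl differed by 5.30 ± 0.37 and Tchh by 4.88 ± 0.34. These 3 genes were far apart with or without replicate 3. The E18.5 skin arrays were reused from earlier work, so study and organ cannot be told apart. The other comparisons with small intestine cross the sets: stomach had 31 higher and 0 lower, where 45.6% of all genes were called (25.6% higher, 20% lower). Esophagus had 1 higher and 13 lower, where 48.8% were called (25.7% higher, 23.1% lower), and bladder 3 higher and 15 lower, where 45.2% were called (25.9% higher, 19.3% lower). Without replicate 3 esophagus had 7 higher and 0 lower, where 50.8% of all genes were called (27.2% higher, 23.6% lower), and bladder 5 higher and 2 lower, where 47.6% were called (27.5% higher, 20.1% lower).

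In the cornea, a moist stratified epithelium over stroma that does not keratinise, 6 of 41 genes changed over the 7 ages by the limma F test, where 21.7% of all genes did. By the adjusted p of that test alone, without the 2-fold limit, 15 of 41 passed, where 51.6% of all genes did. The 6 were Krtdap, Ivl, Sprr1a, Sbsn, Lce3c and Lce3a. The other 35 genes spanned between 0.13 (Lce6a) and 0.99 (Sprr2d) from their lowest to their highest age mean. No Lce1, Sprr2 or S100-fused gene was called. The median span was 0.49, against 0.55 over all genes.

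Krtdap had the largest span, 5.28 (adjusted p = 1.3e-11). It was 7.53, 7.44 and 6.40 at E14.5 and 10.57, 10.70 and 10.86 at E15.5, a first step of 3.59 ± 0.30 (adjusted p = 1.1e-08). The level then lay between 9.00 and 11.04 from E17.5 to P14, and within that period Krtdap was higher at P3 than at E17.5 (1.32 ± 0.30) and fell by 1.46 ± 0.30 from P3 to P7. At P28 it was 5.23, 6.00 and 5.56 after 10.33, 9.27 and 9.00 at P14; it fell by 3.94 ± 0.30 (adjusted p = 8.5e-09). The P28 arrays were the lowest of all ages, below E14.5 by 1.53 ± 0.30 (adjusted p = 0.00028). Over the first step all 4 basal epithelial markers were higher at E15.5 (summed intensity 1630 to 7340 at E14.5 and 21600 to 29500 at E15.5) and all 3 lens markers lower (4610 to 51200, then 463 to 680). The part of these cells in the first step of Krtdap, Sbsn and Sprr1a was not tested.

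Sbsn, also on chromosome 7, had called first and last steps in the same directions as Krtdap. It was 7.85, 8.10 and 8.01 at E14.5, 9.58, 10.21 and 10.35 at E15.5 (2.06 ± 0.16, adjusted p = 3.7e-09), 10.36, 9.89 and 9.90 at P14 and 8.92, 8.86 and 8.60 at P28. From P14 to P28 it fell by 1.26 ± 0.16 (adjusted p = 9.6e-06). Unlike Krtdap, Sbsn at P28 was 0.81 ± 0.16 above E14.5, under the 2-fold limit.

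Sprr1a was 7.80, 7.00 and 6.75 at E14.5 and 9.23, 9.08 and 8.91 at E15.5 (1.89 ± 0.28, adjusted p = 2.6e-05). It fell by 1.24 ± 0.28 from E17.5 (9.64, 9.22 and 9.21) to P3 (8.62, 7.92 and 7.80), and at P28 it was 9.21, 9.02 and 9.61, above E14.5 by 2.10 ± 0.28. The P7 arrays were spread, at 8.32, 9.15 and 7.69. Ivl was 7.78, 7.57 and 7.46 at E14.5, 7.98, 8.60 and 8.72 at P3 and 9.40, 9.71 and 9.41 at P7, a step of 1.08 ± 0.24 (2.11-fold, adjusted p = 0.0076) that was under 2-fold without P3 replicate 1 (0.85) or P7 replicate 2 (0.97). At P14 it was 10.30, 9.64 and 9.47, and at P28 9.67, 9.53 and 8.66, above E14.5 by 1.68 ± 0.24 (adjusted p = 4.3e-06). The called step between neighbouring ages was after birth for Ivl, whereas Sprr1a had its upward step before birth.

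Of the Lce genes, 2 were called in the cornea, while Lce1b (0.98), Lce3f (0.98) and Lce1l (0.49) passed the F test with spans under the 2-fold limit. Lce3c was 9.47, 8.82 and 8.97 at P3 and 7.30, 7.70 and 7.17 at P7; it fell by 1.70 ± 0.22 (adjusted p = 6.1e-05). Lce3a was 7.23, 8.23 and 7.58 at P14 and 10.01, 10.13 and 8.14 at P28, a difference of 1.75 ± 0.34 (adjusted p = 0.00091). The P28 arrays disagreed for Lce3a: replicate 3 lay within the P14 range. When the test used the P14 and P28 arrays alone, Lce3a was not called.

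Between neighbouring ages 3 genes were called from E14.5 to E15.5 (all higher, where 7.56% of all genes were called and 5.3% called higher), 0 from E15.5 to E17.5 by limma (0.306%; 4 had an unadjusted p under 0.05), 2 from E17.5 to P3 (1.43%) and 3 from P3 to P7 (1.42%). From P7 to P14, 0 were called and none had an unadjusted p under 0.05 (0.015% of all genes called), and from P14 to P28 3 were called (4.47%). Between P28 and E14.5, 3 genes were higher and 2 lower, where 13.9% of all genes were called (8.4% higher, 5.54% lower). Sbsn fell by 0.86 ± 0.16 from E15.5 to E17.5 (adjusted p = 0.02), which is under the 2-fold limit.

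**Figure D5:**
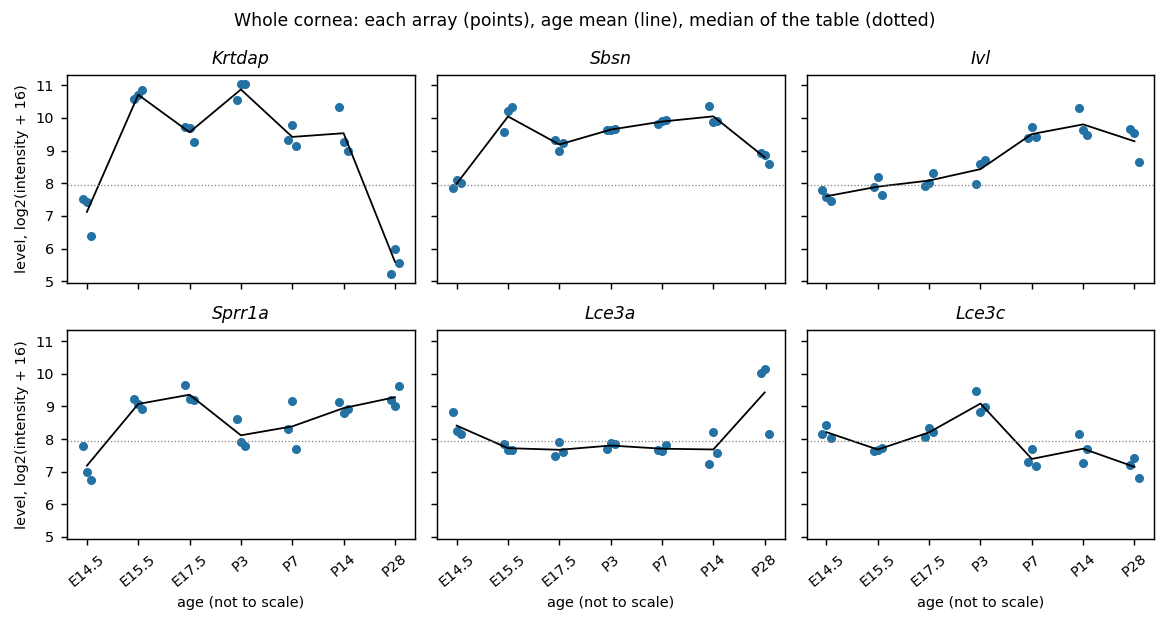
Levels of the 6 genes that changed with age in whole cornea, 3 arrays per age (points) with the age mean (line); ages are evenly spaced and the dotted line is the median of the table, 7.95. Krtdap and Sbsn step up between E14.5 and E15.5 and down between P14 and P28, Ivl climbs after P3, and 2 of the 3 P28 arrays are high for Lce3a.

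Other genes of cornification were followed through the same corneal ages. Of 12 scaffold and cross-linking genes 8 changed over the ages, with spans of 6.69 for Csta1, 5.12 for Scel, 4.45 for Ppl (periplakin) and 3.61 for Anxa1. Of 14 regulators 10 changed, among them the ETS factor gene Ehf (6.75) and Klf4 (4.70), and of 13 genes of filaggrin processing and desquamation 7 changed, led by Serpinb5 (6.83) and Asprv1 (5.15). The mucosal keratins Krt13 (7.07) and Krt4 (4.51) changed, and 0 of 4 epidermal suprabasal keratins did by limma (1 had an unadjusted p under 0.05). The corneal genes Aldh3a1 (8.66) and Krt12 (8.00) checked the labels: Krt12 was 6.00, 6.04 and 5.92 at E14.5 and 11.49 or more at every later age. Tissue around the cornea varied between arrays: the lens gene Cryaa was 13.97 and 14.00 on E14.5 replicates 2 and 3, 12.52 on P14 replicate 2 and 11.01 on P28 replicate 2, and at most 9.71 elsewhere. The muscle gene Acta1 was 12.41 and 12.55 on E17.5 replicates 1 and 3, 11.25 on E15.5 replicate 1 and at most 9.21 elsewhere. The part of these tissues in the results was not tested.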

How the data were processed

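The authors deposited linear intensities per probe set, 1 table per array type. The submitters' processing notes name PLIER 2.0 and Affymetrix Expression Console 1.1.1; how arrays were normalized against each other is not stated there. From these intensities, log2(value + 16) was quantile-normalized within each table, the brightest probe set with 1 annotated gene was kept per gene, and limma 3.58.1 (R 4.3.3) was fitted over all groups of a table with Benjamini-Hochberg adjustment over all genes. Of 45101 probe sets on the 3' arrays 34958 had 1 gene, 932 several and 9211 none; on the Gene ST arrays these numbers were 21789, 1621 and 12146 of 35556. Symbols of 99.42% and 99.58% of the single-gene probe sets were found in RefSeq's gene table. The number of arrays limits the precision. Recovery was tried on simulated data with normal noise around each gene's mean, without the floor of 4 or a difference between sets of arrays. It does not show what is recovered for dim genes or across sets. On simulated data 94% of changes of 2 log2 units and 96% of changes of 3 units were recovered for E18.5 against E16.5 skin (18194 genes, 1 false call), and 98% of both for P28 against P14 cornea (19938 genes, 2 false calls).

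The members and gene lists were chosen with earlier results of these data known. Full values are given for up to 10 called members of a comparison with the largest change and for the 10 singly named genes; Sprr1a and Sprr3 are added after their values were seen, as is Tgm3. Stomach and esophagus share replicate numbers in the labels. The deviations of same-numbered arrays from their group means correlated at 0.12 to 0.2 (other pairs -0.14 to 0.02). With 3 arrays per organ these deviations are not independent of each other, so the correlations cannot settle whether the numbers pair the arrays. Alternatives were the deposited scale, a pseudocount of 1, a filter on dim genes, the mean of a gene's probe sets, fits on the groups compared, leaving out each array, E14.5 skin replicates 1 and 2 averaged and, added after the data were seen, the arrays of the same set alone.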

Additional observations from a re-analysis of the deposited data

Results flagged for a closer look

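Between E14.5 and E16.5, skin and bladder changed by different amounts for 17 of 33 genes by the interaction term of the limma fit, 16 with the larger rise in skin and 1 with the smaller, where 42.2% of all genes were called. Lce1m (7.42 ± 0.70), Lce1b (7.07 ± 1.04) and Lce1c (6.88 ± 1.29) had the largest positive terms, and Tchh (-3.51 ± 0.51) was the negative one. The E16.5 skin arrays lie in another set than the E14.5 skin and bladder arrays, so the set and the organ cannot be told apart.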

How the results depend on the processing

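Of 3587 values of called genes under the alternatives, 3288 kept their direction and their side of the threshold, 298 kept the direction without passing it, and 1 reversed: Lce1f, esophagus against small intestine, was 0.93 with a pseudocount of 1. With that pseudocount 3 genes were called between E18.5 and E16.5 skin and 2 between E18.5 and E16.5 bladder. With the compared groups alone the counts were 5 for E18.5 against E16.5 bladder, 13 for skin, 9 for stomach, 1 for esophagus and 2 for bladder against small intestine, and 6 for esophagus against bladder. With the arrays of the same set alone they were 17 for skin against small intestine, 3 for skin E18.5 against E16.5, 4 for bladder E18.5 against E16.5 and 6 for esophagus against bladder. Leaving out 1 array gave 7 to 20 genes for esophagus and 7 to 24 for bladder against small intestine, 5 to 8 for E14.5 skin against bladder and 0 to 1 for E17.5 against E15.5 cornea (1 without E15.5 replicate 1). Esophagus against small intestine gave 8 without esophagus replicate 2 or 4, and bladder against small intestine 11 without bladder replicate 1 and 10 without replicate 3. The replicate block gave 31 genes for stomach against esophagus. In the cornea same-numbered arrays correlated at -0.29 to 0.41 (14 of 63 pairs over 0.1) and other pairs at -0.35 to 0.33 (29 of 126). These correlations cannot settle whether the numbers pair the cornea arrays, for the same reason as in stomach and esophagus. The block left the count for the 7 ages at 6. With 2 or 3 arrays per group small differences can go undetected, and genes near the floor of 4 have no order.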

Other observations

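Within the Lce3 and Sprr2 families, several members were low on all skin arrays and higher in stomach. The E16.5 and E18.5 skin arrays lie in another set than stomach. Lce3a and Lce3b lay at 4.00 to 5.87 on all 9 skin arrays and at 10.52 to 12.45 on the stomach arrays. Sprr2f was 6.64, 6.80 and 6.65 in stomach, 4.14, 7.76 and 4.97 in esophagus and 4.00 to 5.10 in skin, so esophagus replicate 2 was the brightest array for that gene. On the same esophagus array Apoa4, an intestinal gene, was 7.95, against 4.04 and 4.00 on the other esophagus arrays.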
